A study of Mus musculus with 2 samples.

Results

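The 10 genes described here were taken as marks of the venous segment of the mouse vasculature: *Slc6a2*, *Prss23*, *Nr2f2*, *Car8*, *Bst1*, *Amigo2*, *Ephb4*, *Cytl1*, *Ch25h* and *Samd5*. They are 10 of the 32285 genes counted in 2 libraries of 10x Genomics 3′ single-cell RNA-seq, made from sorted CD31+CD45- cells of YUMMER1.7 tumors, which grow from a mouse melanoma line of high immunogenicity. They were selected on values measured in these same 2 libraries, so their higher level over all tumor endothelial cells (TECs) is a description of the choice and not a finding. What the choice did not fix is where the higher level sits: inside the cells that hold several of these genes, outside them, or only in the number of such cells.

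The control library came from mice whose genotype the label gives as C57BL/6, while the study's methods give the Cre driver and a ZsGreen reporter without a floxed *Dnmt1*. The Dnmt1iECKO library came from Cdh5CreERT2;Dnmt1fl/fl;ZsGreenlsl/lsl mice, in which tamoxifen given before the tumor cells activates a Cre driven by the *Cdh5* promoter, so the deletion reaches endothelial cells (ECs) of every vessel type. All mice were female and 8 to 10 weeks old, and the tumors of 3 mice were pooled into each library. The labels give subcutaneous tumors, whereas the methods give lung tumors after tail vein injection for these libraries. Cells led by genes of aerocytes, which are capillary cells of the lung alveoli, were present in both, as given below. These libraries thus held lung endothelium. With 1 library per condition no test can be made, and every interval below covers counting error only, neither the spread between mice nor that between single cells.

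The control library held 9301 cells and 123830489 unique molecular identifiers (UMIs), and the Dnmt1iECKO library 9522 cells and 141433493 UMIs. The selection of endothelial cells asked for at least 1 UMI of *Cdh5* or *Pecam1*, which encode the junction proteins VE-cadherin and CD31, and none of the leukocyte gene *Ptprc*, and left 6111 and 2675 cells. Quality filters and the exclusion of cells with a UMI of *Epcam*, *Cspg4* or *Myh11* left 4837 control and 2063 Dnmt1iECKO TECs, with medians of 9595 and 9755 UMIs. The libraries share 29 cell barcodes, 6 of them among TECs. Levels are given as CPM, the UMIs of a gene per 1000000 UMIs of the same cells. *Dnmt1* itself was at 49.0 CPM in control TECs and 26.6 in Dnmt1iECKO TECs, although 3′ counts do not report whether the floxed exons were removed. Of 12994 genes with at least 100 UMIs in TECs of both libraries together, 23.4% were higher in Dnmt1iECKO TECs beyond counting error, and the median log2 ratio of all of them was −0.011.

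Veins and arteries are set apart early in development, when the nuclear receptor COUP-TFII, encoded by *Nr2f2*, restrains Notch signaling and with it the arterial program. Venous ECs then carry the receptor EphB4, which meets ephrin-B2 on arterial ECs at the boundary between the vessels. In the adult, venules are the segment where leukocytes leave the blood, because venular ECs display selectins and adhesion molecules.

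The other 8 genes have varied roles. *Slc6a2* encodes the noradrenaline transporter, *Bst1* the cell surface enzyme CD157, and *Amigo2* a leucine-rich adhesion protein. *Prss23* encodes a secreted serine protease and *Cytl1* a small secreted cytokine-like protein. *Ch25h* encodes cholesterol 25-hydroxylase, which makes an oxysterol with antiviral activity, and *Car8* a carbonic anhydrase-related protein that lacks the enzyme's catalytic activity. *Samd5* encodes a protein with a sterile alpha motif domain.

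On GRCm38 the genes lie on 7 chromosomes. *Slc6a2* occupies chromosome 8 from 92960079 to 93001667 and *Cytl1* chromosome 5 from 37735519 to 37739820, both on the plus strand and with no overlapping gene in the annotation. *Bst1* (chromosome 5, 43818885 to 43843986) and *Ephb4* (chromosome 5, 137350109 to 137378669) also lie on the plus strand and overlap *Fbxl5* and *Zan* on the opposite strand. *Nr2f2* (chromosome 7, 70351944 to 70366735), *Prss23* (chromosome 7, 89507783 to 89527187), *Amigo2* (chromosome 15, 97244125 to 97247287), *Ch25h* (chromosome 19, 34473778 to 34475164) and *Samd5* (chromosome 10, 9622936 to 9675208) lie on the minus strand, each with an overlapping gene opposite. *Car8* (chromosome 4, 8143362 to 8239041, minus strand) overlaps *Gm11799* on its own strand, so its count may depend on how shared reads were assigned.

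Because DNMT1 keeps CpG sites methylated through cell division, the CpG content of the promoters was read from RefSeq sequences of GRCm38.p6, from 250 bases before to 50 after the start. A sequence was found for 7 of the 10 genes and 13 starts. *Slc6a2*, *Car8* and *Bst1* had none. Over all 32851 promoters of that length the median was 7 CpG sites. *Cytl1*, the gene with the highest ratio between libraries, had 4 CpG sites and *Nr2f2* had 2, *Ch25h* had 10 and *Ephb4* 14, while *Samd5* had 43 and *Amigo2* 46, a number that 1.65% of all promoters reach. The 7 starts of *Prss23* had between 4 and 41. The genes thus share no common CpG content, and methylation was not measured here. The half-site of nuclear receptors, AGGTCA on either strand, was in 2 of the 13 promoters, both of *Prss23* and overlapping each other, and in 16.3% of all promoters. The sequences of *Cytl1*, *Nr2f2* and *Amigo2* are shown because they span the range from few to many CpG sites, which stand in capitals.
Cytl1, chr5:37735269-37735568, plus strand: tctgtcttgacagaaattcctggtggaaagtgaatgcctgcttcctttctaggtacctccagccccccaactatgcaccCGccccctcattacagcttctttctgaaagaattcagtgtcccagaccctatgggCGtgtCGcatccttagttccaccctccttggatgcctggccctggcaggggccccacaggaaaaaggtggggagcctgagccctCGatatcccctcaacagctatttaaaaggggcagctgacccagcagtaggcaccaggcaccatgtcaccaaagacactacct
Nr2f2, chr7:70366697-70366996, minus strand: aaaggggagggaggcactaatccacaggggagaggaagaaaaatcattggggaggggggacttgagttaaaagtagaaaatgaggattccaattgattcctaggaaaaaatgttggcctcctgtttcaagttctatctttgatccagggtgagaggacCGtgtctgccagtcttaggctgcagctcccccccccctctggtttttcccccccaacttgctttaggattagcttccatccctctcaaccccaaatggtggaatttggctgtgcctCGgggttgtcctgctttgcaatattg
Amigo2, chr15:97247238-97247537, minus strand: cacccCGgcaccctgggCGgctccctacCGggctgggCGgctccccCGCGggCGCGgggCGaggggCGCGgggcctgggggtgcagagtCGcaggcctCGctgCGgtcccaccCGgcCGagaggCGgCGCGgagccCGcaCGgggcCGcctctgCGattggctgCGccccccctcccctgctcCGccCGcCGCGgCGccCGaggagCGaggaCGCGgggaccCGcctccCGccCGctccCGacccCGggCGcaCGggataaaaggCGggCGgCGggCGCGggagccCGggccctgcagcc

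Over all TECs the 10 genes together were at 520 CPM in the control and 882 in the Dnmt1iECKO library. *Cytl1* was the furthest apart, at 14.7 and 53.7 CPM, a log2 ratio of 1.87 with an interval of 1.74 to 1.99. *Slc6a2* followed at 36.6 and 98.1 CPM, a log2 ratio of 1.42 (1.34 to 1.51). *Ch25h* was at 21.8 and 40.8 CPM, and the transcription factor *Nr2f2* at 60.9 and 106. *Prss23* (121 and 202) and *Samd5* (108 and 186) were the most abundant, and both had a higher level in the Dnmt1iECKO library. *Car8* (21.4 and 36.5), *Bst1* (13.9 and 23.9) and *Amigo2* (14.7 and 23.9) were low in both libraries, with log2 ratios between 0.70 and 0.79. The receptor *Ephb4* was nearly level, at 106 and 112 CPM, a log2 ratio of 0.08 (0.02 to 0.15).

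Thus 9 of the 10 genes, all but *Ephb4*, were at least 1.5-fold higher, against 7.27% of all genes, and all 10 were higher beyond counting error, against the 23.4% given above. Nothing is read from these counts, since the genes were chosen for them. The choice also bears on such counts within groups of these TECs, given below, which are descriptions too. With the selection of endothelial cells alone, before the quality filters and the further exclusions, *Ephb4* turned to 93.3 and 86.9 CPM, a log2 ratio of −0.10 (−0.16 to −0.04), and 5 genes were at least 1.5-fold higher. A few cells carried much of the RNA: the 10 TECs with the most *Cytl1* held 36.8% of its UMIs in the control and 36.6% in the Dnmt1iECKO library, and those with the most *Slc6a2* 24.2% and 25.1%. The UMIs of *Ephb4* were spread most evenly, with 2.27% and 4.29% in its 10 highest TECs.

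**Figure D1:**
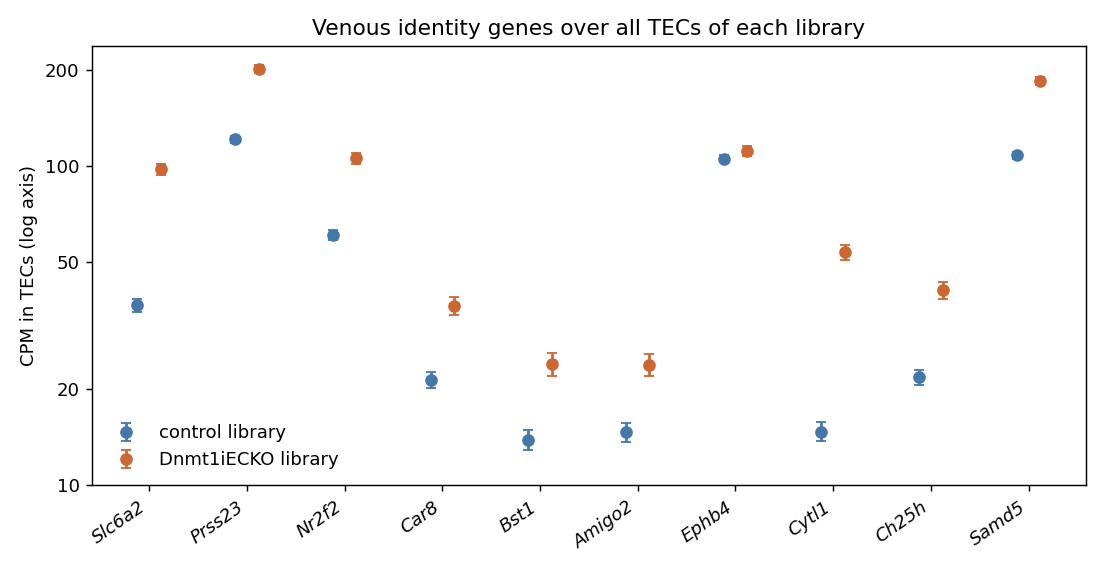
Level of the 10 venous identity genes in CPM (log axis) over all TECs of the control library (blue) and the Dnmt1iECKO library (orange), with exact Poisson 95% intervals. *Cytl1* (14.7 and 53.7) and *Slc6a2* (36.6 and 98.1) are furthest apart, and *Ephb4* (106 and 112) lies almost level.

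To count cells at the same depth in both libraries, each TEC was thinned to 2000 UMIs drawn at random, which left 4482 control and 1892 Dnmt1iECKO TECs and set aside 355 and 171 shallower ones. The drawn UMIs served to place a cell in a group, and the UMIs not drawn served to measure levels in that group, so no UMI was used for both. Most TECs showed none of the 10 genes, 58.3% of control and 51.5% of Dnmt1iECKO TECs. TECs with at least 3 of the genes made up 4.98% of the control (223 cells) and 9.83% of the Dnmt1iECKO TECs (186 cells), a log2 ratio of 0.98 (0.69 to 1.27). Over 20 further random draws this log2 ratio ran from 0.98 to 1.27. Without thinning, 23.4% and 31.8% of TECs held at least 3 genes.

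The excess lay mostly among TECs with many of the genes. TECs with exactly 3 made up 2.16% and 2.59%, within counting error, and in 8 of the 20 further draws their share was higher beyond it. TECs with at least 4 made up 2.81% and 7.24%, a log2 ratio of 1.37 (1.01 to 1.73), and those with at least 5 made up 1.85% and 4.76%. No cell showed 9 or 10 of the genes, which allows a share of up to 0.0823% in the control and 0.195% in the Dnmt1iECKO TECs.

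**Figure D2:**
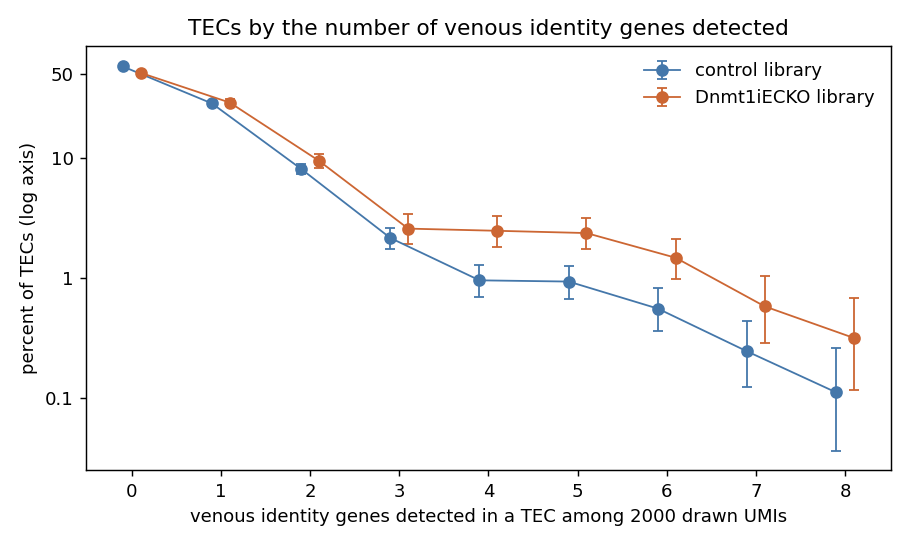
Percent of TECs (log axis) by the number of venous identity genes detected among 2000 drawn UMIs, for the control (blue) and Dnmt1iECKO (orange) library, with exact Clopper-Pearson 95% intervals. The lines lie close up to 3 genes, at 2.16% and 2.59%, and part from 4 genes on, at 0.959% and 2.48%.

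The label of the group was checked against 12 other vein and venule genes that took no part in it. These 12 genes were chosen with earlier results of these data known. At least 3 of these were detected in 65.9% of control and 75.8% of Dnmt1iECKO TECs of the group, compared with 13.6% and 20.0% of all thinned TECs. *Vwf*, the clotting protein von Willebrand factor, was at 1433 and 1887 CPM in the group and 124 and 150 in TECs with 0 to 2 of the 10 genes. *Selp*, which encodes P-selectin, was at 1209 and 2754 in the group and 32.9 and 103 outside it. The 8 aerocyte genes summed to 889 and 511 CPM in the group and to 3091 and 2244 outside it. Other vessel types differed less. The 7 general capillary genes summed to 2828 and 2241 in the group and to 2902 and 2687 outside it. The 12 artery genes summed to 1316 and 1105 in the group and to 1708 and 1804 outside it. The group thus still held much RNA of capillary genes. *Ackr1*, the decoy chemokine receptor of post-capillary venules, had a drawn or undrawn UMI in 16 of the 223 control and 32 of the 186 Dnmt1iECKO cells. It did not keep to the group, with 308 and 380 undrawn UMIs inside and 87 and 201 outside. TECs with none of the 10 genes held 2 of these UMIs in the control and 97 in the Dnmt1iECKO library. The number of cells that held them was not counted, so they may lie in few cells.

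The 10 genes differed widely in how closely they keep to the group. In control TECs *Slc6a2* was 377-fold and *Car8* 172-fold higher in cells with at least 3 of the genes than in cells with none, and the group, 4.98% of the cells, held 88.7% of the undrawn UMIs of *Slc6a2* and 79.6% of those of *Car8*. *Cytl1* was 99.9-fold higher, *Bst1* 34.0-fold, *Prss23* 23.9-fold and *Ch25h* 19.6-fold. *Nr2f2*, at 8.12-fold, and *Ephb4*, at 1.83-fold, were the weakest marks of the group, with 26.0% and 10.1% of their UMIs in it. Each gene here helped to place its cells, and with the group set by the other 9 genes alone the fold was 414 for *Slc6a2*, 136 for *Car8*, 47.8 for *Cytl1*, 8.53 for *Ch25h*, 5.21 for *Nr2f2* and 1.70 for *Ephb4*.

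Inside the group the summed level was 3364 CPM in control and 4639 in Dnmt1iECKO TECs, a log2 ratio of 0.46 (0.42 to 0.50). This value depends on the draw: over 20 further draws it ran from 0.23 to 0.49 with a median of 0.35, wider than its counting interval. The secreted protein gene *Cytl1* was at 172 CPM in control and 337 in Dnmt1iECKO cells of the group, a log2 ratio of 0.97, with 0.62 to 1.03 over the draws. The noradrenaline transporter gene *Slc6a2* was at 518 and 827, a log2 ratio of 0.67 (0.38 to 0.69 over the draws). These 2 were the members at least 1.5-fold higher inside the group, against 2.69% of the 6962 genes counted there.

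*Prss23*, at 934 and 1300 CPM, and *Samd5*, at 674 and 919, were the most abundant of the 10 in the group and both were higher in the Dnmt1iECKO cells, with log2 ratios of 0.48 and 0.45. *Ch25h* was at 136 and 184 and *Nr2f2* at 251 and 325, with log2 ratios of 0.44 and 0.37. All 4 were higher in each of the 20 further draws, beyond counting error in 20 for *Prss23* (0.26 to 0.55) and *Samd5* (0.21 to 0.50), 19 for *Nr2f2* (0.12 to 0.44) and 14 for *Ch25h* (0.15 to 0.49). *Nr2f2* was within counting error in TECs selected with at least 3 pan-endothelial genes and under 2 genes of other types (0.21), with cells thinned to 1000 UMIs (0.071), in a second draw (0.12) and with a limit of at least 4 genes (0.16). *Ch25h* was so with 1000 UMIs (0.12), in the second draw (0.095) and with at least 4 genes (0.029). In total 6 of the 10 genes, these 4 with *Cytl1* and *Slc6a2*, were higher inside the group beyond counting error in the draw reported, against 11% of all genes counted there.

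The other 4 genes were within counting error inside the group. *Car8* was at 270 and 292 CPM, a log2 ratio of 0.11 (−0.04 to 0.26), and over the draws its ratio ran from −0.17 to 0.11. *Bst1* was at 135 and 152 (0.18, −0.03 to 0.38), *Amigo2* at 114 and 130 (0.20, −0.03 to 0.42), and *Ephb4* at 160 and 174 (0.12, −0.07 to 0.31). Over the further draws *Bst1* ran from −0.12 to 0.22 and *Ephb4* from −0.22 to 0.11, the first higher and the second lower beyond counting error in 1 draw, while *Amigo2* ran from 0.06 to 0.33 and was higher beyond counting error in 8. The median log2 ratio of the 10 genes was 0.40, and that of all genes counted in the group was −0.042. *Dnmt1* was at 43.7 and 27.8 CPM in the same cells, on 132 and 68 UMIs.

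The group is not uniform: 37.2% of its control and 48.4% of its Dnmt1iECKO cells had at least 5 of the genes, which is within counting error (log2 ratio 0.38, −0.07 to 0.83). Among TECs with at least 5 of the genes the summed level was 5212 and 6095 CPM, a log2 ratio of 0.23 (0.18 to 0.27). *Cytl1* kept its distance there, at 263 and 515 (log2 ratio 0.97), and *Slc6a2* was at 849 and 1127 (0.41). *Prss23* (0.17) and *Samd5* (0.16) were higher by less, and the other 6 genes were within counting error. Cells enter these groups by detection of the same genes, so that a higher level also moves cells into them, and level and number cannot be told apart completely in this way.

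**Figure D3:**
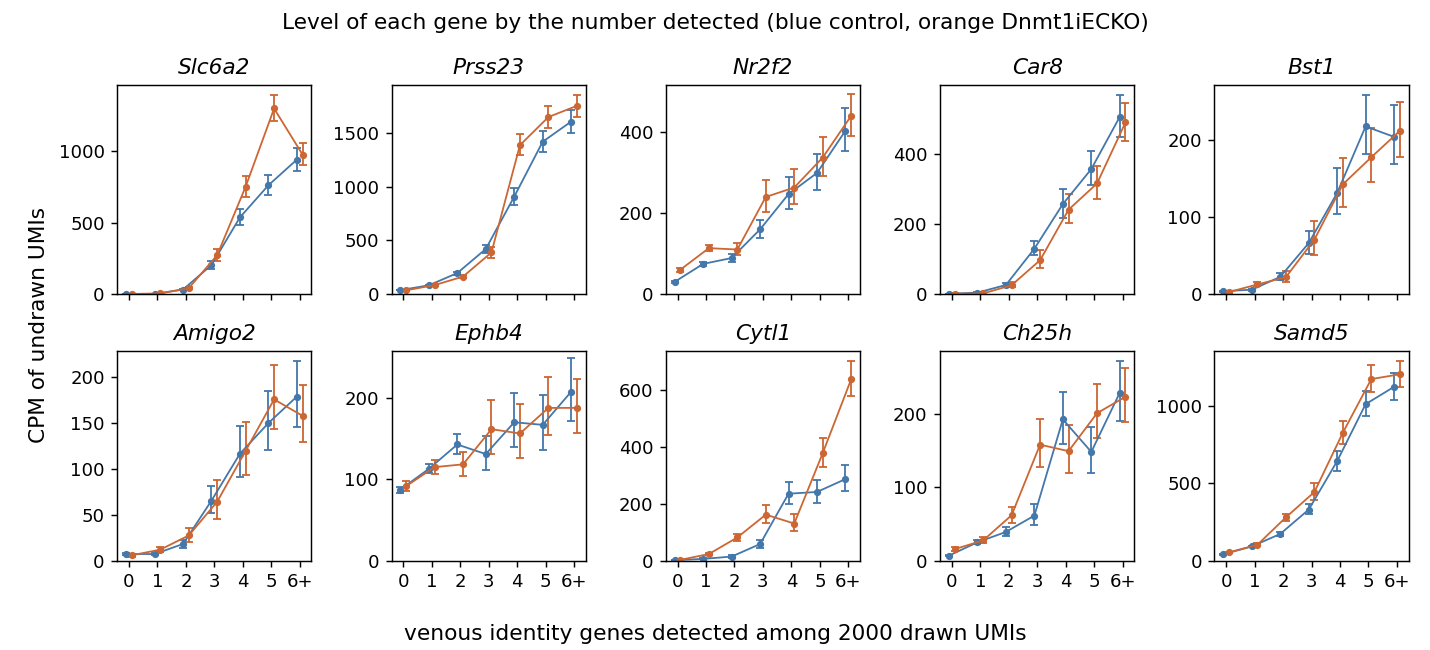
Level of each gene in CPM of the undrawn UMIs, by the number of the 10 genes detected among the drawn UMIs (6+ stands for 6 or more), for the control (blue) and Dnmt1iECKO (orange) library with exact Poisson 95% intervals. Every gene is higher at 6 or more genes than at 0, *Ephb4* by the smallest factor. *Cytl1* is higher in the Dnmt1iECKO library at 2 genes (14.3 and 81.4) and at 6 or more (286 and 636), and lower at 4 (235 and 130). These are values of the draw reported and were not repeated over the further draws. At exactly 3 genes the log2 ratio of *Cytl1* ran from −0.33 to 2.27 over 20 further draws.

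Outside the group, in TECs with 0 to 2 of the genes, the summed level was 331 CPM in the control and 424 in the Dnmt1iECKO library, a log2 ratio of 0.36 (0.32 to 0.40) and 0.26 to 0.36 over the draws. *Cytl1* was at 4.27 and 18.5, a log2 ratio of 2.11 (1.85 to 2.38), and 1.65 to 2.57 over the draws. *Nr2f2* was at 50.2 and 84.4, a log2 ratio of 0.75 (0.66 to 0.84), and it was higher in TECs that showed none of the 10 genes too, at 30.9 and 60.9. *Ch25h* was at 15.6 and 24.8 (log2 ratio 0.67, 0.59 to 0.88 over the draws), and *Samd5* at 69.4 and 95.1 (0.46, 0.32 to 0.49 over the draws). *Slc6a2* was at 4.66 and 8.19, a log2 ratio of 0.81, which ran from 0.17 to 1.14 over the draws and was beyond counting error in 16 of 20. It was 1.31 in the TECs selected with pan-endothelial genes and 0.17, within counting error, with cells thinned to 5000 UMIs. These are low levels for *Slc6a2* and *Cytl1*, far below those inside the group.

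The protease gene *Prss23* stood apart, at 67.4 CPM in both libraries outside the group, a log2 ratio of −0.00 (−0.10 to 0.10). Over the further draws it ran from −0.19 to 0.02 and was below 0 beyond counting error in 11 of 20, and above 0 beyond it in none. It was −0.23 with the selection of endothelial cells alone and 0.31 with cells thinned to 1000 UMIs, each beyond counting error. *Car8* was within counting error outside, at 4.87 and 4.59 (−0.09, −0.46 to 0.28), with −0.60 to 0.41 over the draws, as was *Ephb4* at 100.4 and 102 (0.03, −0.05 to 0.11). *Bst1*, at 6.29 and 8.40 (0.42), and *Amigo2*, at 8.27 and 10.3 (0.32), were higher beyond counting error in the draw reported, but in the further draws *Bst1* was so in 15 of 20 and *Amigo2* in 4. In total 7 of the 10 genes were higher outside the group beyond counting error, against 22.1% of 12599 genes, and 4 of them, *Slc6a2*, *Nr2f2*, *Cytl1* and *Ch25h*, at least 1.5-fold, against 7.20%.

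Cells of other types moved with this comparison. At least 2 of 6 epithelial genes were detected in 8.43% of control and 3.75% of Dnmt1iECKO TECs with 0 to 2 of the 10 genes. The 6 summed to 525 and 406 CPM there, with *Epcam* at 0 by selection and the surfactant gene *Sftpc* at 76.5 and 16.7. Epithelial cells held *Car8*, as given below, and the part of this difference in the low *Car8* values outside the group was not tested. At least 2 of 4 platelet genes were detected in 3.36% and 4.92%. At least 2 of 6 fibroblast genes were detected in 2.84% of control and 5.86% of Dnmt1iECKO TECs with 0 to 2 of the 10 genes, and the 6 genes, with *Dcn*, *Col1a1*, *Col1a2* and *Col3a1* the most abundant, summed to 575 and 1208 CPM. *Nr2f2* is not confined to veins: in cells with at least 3 fibroblast genes it was at 304 and 312 CPM. Without cells holding at least 2 genes of the fibroblast, mesothelium, mural, melanocyte, lymphatic or platelet lists, the log2 ratio of *Nr2f2* outside the group was 0.73 (0.59 to 0.88). It was 1.24 in TECs with at least 3 pan-endothelial genes and under 2 genes of other types. Without the exclusion by *Epcam*, *Cspg4* and *Myh11* it was 0.47. The part of other cell types in this ratio was not tested. Inside the group, cells with at least 2 fibroblast genes were 5 of 223 and 0 of 186, which allows a share of up to 1.61% in the latter.

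**Figure D4:**
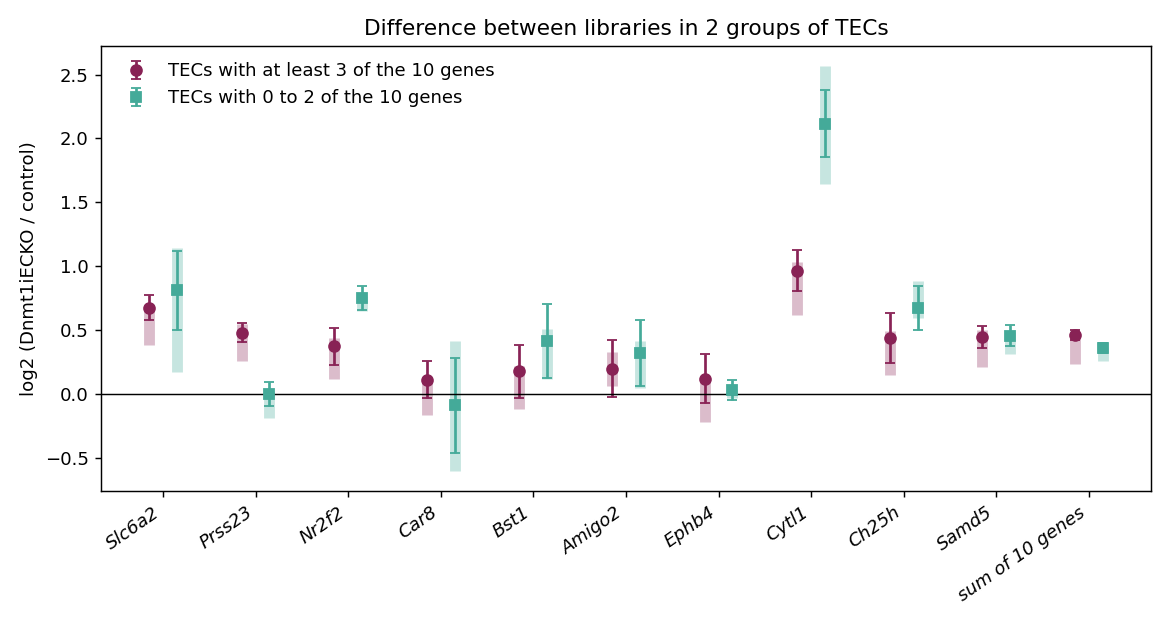
Log2 ratio of Dnmt1iECKO to control level for each gene and for their sum in TECs with at least 3 (purple circles) and 0 to 2 (green squares) of the 10 genes. Thin bars are exact 95% counting intervals of the draw reported and pale bands the range over 20 further draws. *Prss23* is higher inside (0.48) and level outside (−0.00), *Car8* spans 0 in both, and *Cytl1* is higher in both (0.97 and 2.11).

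The same question was asked with cells grouped by the 12 other vein genes, which leaves the 10 genes out of the grouping. TECs with at least 3 of the other vein genes made up 13.6% of the control and 20.0% of the Dnmt1iECKO TECs, and in them the summed level of the 10 genes was 1379 and 2165 CPM, a log2 ratio of 0.65 (0.61 to 0.69) and 0.60 to 0.80 over the draws. *Slc6a2* was at 174 and 330 CPM, *Prss23* at 352 and 553, *Nr2f2* at 131 and 196, and *Cytl1* at 69.6 and 172. *Car8* was at 88.8 and 119, a log2 ratio of 0.42 (0.27 to 0.57), and *Bst1* and *Amigo2* were higher as well. In total 9 of the 10 genes, all but *Ephb4*, were higher beyond counting error, against 13.2% of 9834 genes. These cells are a wider set than the group above, and their shares of cells with many of the 10 genes can differ between libraries. Of the 12 grouping genes, 11 were themselves higher over all Dnmt1iECKO TECs. Level and number cannot be told apart completely in this way either.

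In TECs with 0 to 2 of the other vein genes the summed level was 332 and 405 CPM, a log2 ratio of 0.28 (0.24 to 0.33). *Nr2f2* was at 47.6 and 78.4 and *Samd5* at 70.8 and 93.9, both higher, while *Prss23* was at 71.1 and 71.0. *Car8* was lower there, at 6.77 and 5.09, a log2 ratio of −0.41 (−0.79 to −0.04), and −0.79 to 0.62 over the draws. In total 6 of the 10 genes were higher beyond counting error, against 20.5% of 12284 genes.

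The difference over thinned TECs can be divided by arithmetic into what the shares of cells with 0, 1, 2 and more genes, weighted by their UMIs, give with control levels held, and what the levels give with control shares held. For the sum of the 10 genes the observed log2 ratio was 0.76, the shares alone gave 0.50, and the levels alone 0.28. The split was made on the draw reported only. That draw had a low ratio of the share with at least 3 genes, 0.98 beside 0.98 to 1.27 over the further draws. Its ratio of the level inside the group was high, 0.46 beside 0.23 to 0.49. The values from shares and levels may thus differ in other draws. For *Car8* the shares alone gave 0.87 and the levels alone −0.18, and for *Prss23* they gave 0.59 and 0.08. *Bst1* (0.68 and 0.12) and *Amigo2* (0.54 and 0.13) also had the larger value from shares. *Nr2f2* had the larger value from levels, 0.61 beside 0.31 from shares, and so had *Cytl1*, 1.16 beside 0.84. *Slc6a2* had 0.96 from shares and 0.46 from levels. With cells divided by the other vein genes the sum split evenly, 0.36 and 0.36, so the split moves with the genes that define the groups.

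Among TECs outside the group, those with many genes of another vessel type were compared next. TECs with at least 5 of 12 artery genes numbered 417 in the control and 250 in the Dnmt1iECKO library, which is 9.30% and 13.2% of thinned TECs. In them *Cytl1* was at 18.7 and 98.6 CPM, a log2 ratio of 2.40 (2.01 to 2.80). They held 73 and 235 of the 183 and 354 undrawn *Cytl1* UMIs outside the group. *Ch25h* was lower in them, at 23.8 and 13.0, a log2 ratio of −0.87 (−1.51 to −0.27). *Nr2f2*, at 14.6 and 20.1, was within counting error in these cells.

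TECs led by genes of aerocytes, the large alveolar capillary cells, numbered 1070 and 332, which is 23.87% and 17.55% of thinned TECs. They had the lowest levels of the 10 genes, 108 and 120 CPM summed, a log2 ratio of 0.16 (−0.01 to 0.33). *Nr2f2* was the only member higher there beyond counting error, at 15.3 and 28.7, a log2 ratio of 0.91 (0.51 to 1.29). TECs led by genes of general capillary cells numbered 1972 and 731 (44% and 38.6%), with a log2 ratio of the summed level of 0.21 (0.15 to 0.26). The part of these differing shares, and of that of TECs with artery genes, in the level outside the group was not tested. In the general capillary cells *Nr2f2* was at 35.7 and 53.8 (log2 ratio 0.59), *Ch25h* at 19.9 and 29.4 (0.56) and *Samd5* at 97.1 and 129 (0.41). *Cytl1* was at 2.50 and 1.93 in the same cells, within counting error, and *Prss23* at 98.4 and 93.0. *Ephb4* was not particular to the group of at least 3 genes, where it was at 160 and 174. It was at 134 and 136 in the general capillary cells and at 140 and 133 in the TECs with artery genes.

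The lymphatic vessels branch from veins in the embryo, and TECs with at least 3 of 7 lymphatic genes, 32 and 14 cells, held *Nr2f2* at 497 and 461 CPM and *Prss23* at 310 and 438. *Slc6a2*, *Bst1* and *Amigo2* had 0 UMIs in these cells of both libraries.

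**Figure D5:**
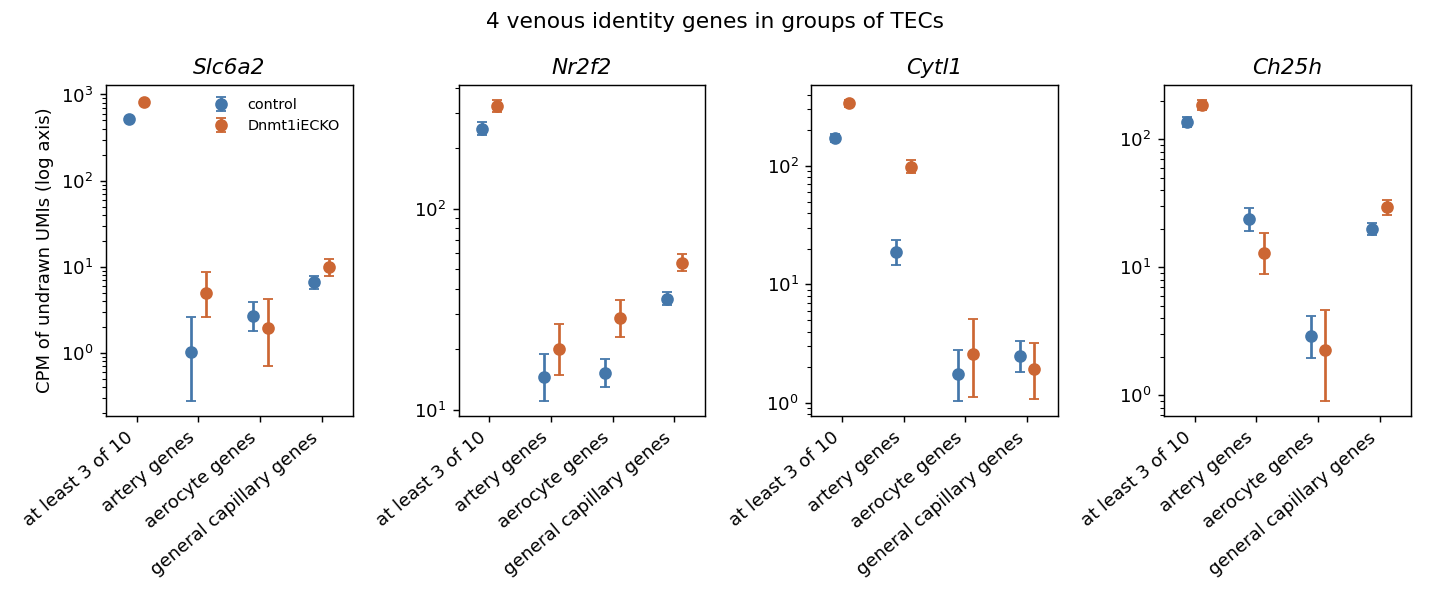
Level of *Slc6a2*, *Nr2f2*, *Cytl1* and *Ch25h* (CPM of undrawn UMIs, log axis) in TECs with at least 3 of the 10 genes and in 3 groups of other TECs led by artery, aerocyte and general capillary genes, with exact Poisson 95% intervals. *Cytl1* lies far apart in TECs with artery genes (18.7 and 98.6) and not in those with general capillary genes (2.50 and 1.93).

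Within the group of at least 3 genes, the cells with an *Ackr1* UMI were few, 16 and 32, and deep, with medians of 20820 and 20201 UMIs. *Ch25h* was at 450 and 309 CPM in them and at 91.8 and 134 in the cells without *Ackr1*. *Slc6a2* was higher in the Dnmt1iECKO library in both, at 464 and 781 with *Ackr1* and 526 and 846 without.

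Cells of types not known for these genes served as background. In T cells, 168 and 663 with medians of 8263 and 8201 UMIs, each of the 10 genes had a drawn UMI in at most 1.19% of cells. In epithelial cells, 118 and 74 with medians of 23577 and 28070 UMIs, *Car8* was present in 51.7% and 36.5% of cells and *Nr2f2* in 10.2% and 9.46%, while *Slc6a2*, *Cytl1* and *Ch25h* had no drawn UMI. Among thinned TECs, *Slc6a2* had a UMI in 2.79% and 6.87% of cells, *Cytl1* in 56 control cells and 76 Dnmt1iECKO cells, *Car8* in 2.54% and 4.39%, and *Ephb4* in 19.5% and 20.7%. For *Car8* the share in TECs lies below that in epithelial cells and above that in T cells, which had no drawn UMI of it.

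The other vein and venule genes moved in the same direction as the 10. All gene lists were chosen with earlier results of these data known, so the counts in this paragraph are descriptions. Over all TECs, 11 of the 12 had enough UMIs to be counted, all 11 were higher in the Dnmt1iECKO library beyond counting error, against 23.4% of all genes, and their median log2 ratio was 0.73. *Icam1* was at 556 and 614 CPM, *Vwf* at 208 and 346, *Vcam1* at 171 and 390, and *Selp* at 103 and 380. Inside the group all 11 were higher too, with a median of 0.57, and outside it 10 were higher and *Icam1* was lower. Lower calls stand against 24.2% of all genes that were lower over all TECs beyond counting error. Among 23 genes of arteriovenous specification, 22 were counted, 5 were higher, 12 lower and 5 within counting error, with a median of −0.09. *Nrp1* (1092 and 937), *Kdr* (835 and 698), *Eng* (832 and 776) and *Acvrl1* (742 and 610), the 4 with the most UMIs, were lower. The 5 higher were *Nrp2* (55.5 and 89.3, log2 ratio 0.69), *Foxc1* (1.04), *Hey2* (1.06), *Mef2c* (0.22) and *Hey1* (0.12). All 8 aerocyte genes were lower, with a median of −0.61. Of 13 genes induced by tissue dissociation 11 were higher and 2 lower, with a median of 0.24, and their part in the results above was not tested.

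The genes whose pattern was most like that of the 10 were ranked by the lower of the libraries' log2 ratios between TECs with at least 3 of the genes and TECs with none, over 12612 genes. Of the 10, 8 stood among the highest 50, but these same genes set the groups, so nothing is read from their rank. The first 10 other genes were *Mmp16*, *Pthlh*, *Lpcat2*, *Selp*, *Cysltr1*, *Rarb*, *Ano2*, *Ctsh*, *Foxc1* and *Flvcr2*. Of these *Mmp16*, which encodes a membrane-bound matrix metalloprotease, was at 129 and 153 CPM inside the group, and *Rarb*, a retinoic acid receptor, at 214 and 292. *Ano2*, which encodes a chloride channel, ran the other way from the 10 genes, at 35.7 and 18.0 inside the group, a log2 ratio of −0.99 (−1.53 to −0.47). *Pthlh*, which encodes parathyroid hormone-related protein, was at 10.9 and 22.9. In TECs with none of the 10 genes *Pthlh* had only 6 and 2 undrawn UMIs and *Mmp16* 60 and 12, so their ranks rest on few counts.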

How the data were processed

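The values deposited by the authors are raw UMI counts per gene and cell, which Cell Ranger 9.0.1 produced from reads aligned to mm10, without normalization and after its calling of cells. The 10 genes and all gene lists were chosen with earlier results of these data known. Cells with at most 10% mitochondrial UMIs and at least 500 detected genes were kept, and the methods' higher minimum was not applied. Doublets were the highest Scrublet scores (scanpy 1.11.5) at 0.4% per 1000 cells, 2.76% of each library, where the study used another caller. Levels have exact Poisson 95% intervals, ratios the exact interval conditional on the sum of both counts, and shares Clopper-Pearson intervals. Genes with at least 100 UMIs over both libraries were counted for comparison. A share at 0 allows up to 3 cells, or the Clopper-Pearson bound for cells with 9 or 10 genes. Positions are from GENCODE, which held 32158 of 32285 gene IDs. The genes named are the 10, up to 4 of each list with the most UMIs, markers of the label check, and the 10 most alike. The genes of arteriovenous specification that were higher are named too. The groups by artery (at least 5 genes), aerocyte, general capillary and lymphatic genes (at least 3), by at least 5 of the 10 genes and by *Ackr1*, and the 20 further draws, were set after seeing the data. The calculation was tested on simulated data.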

Additional observations from a re-analysis of the deposited data

Results flagged for a closer look

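The ratio between libraries had opposite signs, each beyond counting error, in paired groups of TECs for *Car8*, *Bst1* and *Ch25h*. With 1 library per condition none of these differences between groups was tested.

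*Car8* had a log2 ratio of Dnmt1iECKO to control of 0.42 in TECs with at least 3 other vein genes and −0.41 in TECs with 0 to 2 of them. Over 20 further draws the first was positive in 20 and the second negative in 17, beyond counting error in 8. The second rests on 252 and 79 UMIs, and *Car8* was also present in epithelial cells.

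Among TECs with at least 3 of the 10 genes, *Bst1* had a log2 ratio of −0.57 in cells with an *Ackr1* UMI and 0.36 in cells without. *Ch25h* had −0.54 with *Ackr1* and 0.55 without. The cells with *Ackr1* numbered 16 and 32, and in the control *Bst1* rests there on 67 UMIs and *Ch25h* on 169.

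*Ch25h* had a log2 ratio of −0.87 in TECs with at least 5 artery genes, on 93 and 31 UMIs, and 0.56 in TECs led by general capillary genes, on 374 and 228 UMIs.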

How the results depend on the processing

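No paired analysis was possible because each condition has 1 library. Of the 7 summary values, the ratios kept their direction under every alternative run. The choice of genes had set the direction of the summed level over all TECs. The remaining value, the count of genes past a fold, has no direction. The selection of endothelial cells alone and the selection without the exclusion by *Epcam*, *Cspg4* and *Myh11* gave log2 ratios of the summed level of 0.57 and 0.57 over all TECs, 0.53 and 0.51 with at least 3 of the 10 genes, 0.19 and 0.18 with 0 to 2, 0.59 and 0.59 with at least 3 other vein genes and 0.17 and 0.17 with 0 to 2. They left 5 and 4 genes at least 1.5-fold higher. In the TECs of the main selection 2 genes were at least 2-fold higher. The shares of all genes for the wider selections and for 2-fold were not computed, so nothing is read from these counts. Under the wider selections *Ephb4* over all TECs reversed, to −0.10 and −0.081. TECs with at least 3 pan-endothelial genes and under 2 genes of other types gave 0.79, 0.29, 0.55 and 0.40 in the first 4 of these sets. Requiring both *Cdh5* and *Pecam1* gave 0.81 over all TECs, and leaving out cells of other types, chosen after seeing the data, 0.88.

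Inside the group, median-of-ratios scaling gave 0.50, thinning to 1000 UMIs 0.29, a second draw 0.26, limits of at least 2 and 4 genes 0.63 and 0.26, and groups by the other 9 genes 0.42. Outside it, thinning to 1000 and 5000 UMIs gave 0.48 and 0.25, and at 5000 *Amigo2* reversed to −0.084. With the other vein genes, thinning to 5000 UMIs gave 0.70 and a second draw 0.73 with at least 3, and thinning to 1000 gave 0.38 with 0 to 2. The share of TECs with at least 3 genes had a log2 ratio of 1.48 at 1000 UMIs, and 0.56 and 1.37 with limits of at least 2 and 4 genes. The cause of these changes was not tested. Outside the group *Slc6a2*, *Car8*, *Bst1*, *Amigo2* and *Cytl1* are under 20 CPM in both libraries.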
